A study of Mus musculus with 8 samples.

Results

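The acute-phase proteins are 10 liver-secreted or inflammation-induced proteins encoded by Saa1, Saa2, Saa3, Saa4, Orm1, Orm2, Orm3, Hp, Lcn2 and Crp. The genes were chosen by symbol, and all 10 were found among the 38283 genes of the deposited table. All 10 also had FPKM above 1 in at least 1 library (FPKM are fragment numbers divided by transcript length and by the mapped fragments of the library), and were among the 11634 genes tested. RNA was sequenced from livers of C57BL/6 mice of 2 genotypes fed a control diet (CD) or a high-fat diet (HFD, 60% of the calories from fat) for 10 weeks from 8 weeks of age. In RORα f/f mice exons 4 and 5 of Rora, which encodes a nuclear receptor, are flanked by loxP sites, and RORα LKO mice carry the same floxed alleles together with Alb-Cre, a Cre recombinase driven by the albumin promoter and so directed to hepatocytes. Crossing genotype (RORα f/f or RORα LKO) with diet (CD or HFD) gave 4 groups, each with 2 libraries, and 2 livers went into every library. The f/f controls thus carried the floxed alleles too, and no group carried Alb-Cre without the floxed alleles.

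The acute-phase response is the change in plasma proteins that follows infection, injury or other inflammation. Interleukin-6, interleukin-1 and tumour necrosis factor reach hepatocytes and act through STAT3, NF-κB and the C/EBP family of transcription factors, which raise the transcription of positive acute-phase genes and lower that of negative ones such as albumin and transthyretin. Saa1 and Saa2 encode the inducible serum amyloid A proteins carried on high-density lipoprotein, Saa3 encodes a form made in many tissues including by macrophages, and Saa4 encodes the constitutive form. Orm1, Orm2 and Orm3 encode orosomucoids (α1-acid glycoproteins), which bind drugs and lipids in plasma, and Hp encodes haptoglobin, which binds free haemoglobin. Lcn2 encodes lipocalin 2, which binds bacterial siderophores and is made by neutrophils as well as by hepatocytes. Crp encodes C-reactive protein, a major acute-phase reactant in humans that responds weakly in mice.

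The Saa genes lay together on chromosome 7 of GRCm38, with Saa3 (ENSMUSG00000040026, 46711998 to 46715700), Saa4 (ENSMUSG00000040017, 46727998 to 46732603) and Saa1 (ENSMUSG00000074115, 46740497 to 46742980) on the minus strand and Saa2 (ENSMUSG00000057465, 46751790 to 46754313) on the plus strand. The Orm genes lay together on the plus strand of chromosome 4, in the order Orm1 (ENSMUSG00000039196, 63344560 to 63348163), Orm3 (ENSMUSG00000028359, 63356162 to 63359511) and Orm2 (ENSMUSG00000061540, 63362449 to 63365878). Hp (ENSMUSG00000031722) lay on chromosome 8 from 109575128 to 109579172 and Lcn2 (ENSMUSG00000026822) on chromosome 2 from 32384633 to 32388252, both on the minus strand. Crp (ENSMUSG00000037942) lay on the plus strand of chromosome 1 from 172698055 to 172833031.

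RefSeq windows of 250 bases before the annotated start (GRCm38.p6) were found for 8 of the 10 genes, with none for Orm1 and Hp. Distances are counted from the RefSeq start, which can differ from the gene coordinates given above. The Saa2 window, for example, ended at 46751832, and the Lcn2 window (32387740 to 32387989) lay within the stated gene. For Orm3 the bases after the RefSeq start were not found in an annotated transcript. A C/EBP element (TTNNGNAAT on either strand) was found in 4 of these 8 windows, those of Saa1, Saa2, Orm2 and Crp, and in 10.2% of the 32851 windows of all genes. The stretches from 250 to 51 bases before the start of these genes are printed because they hold the element and because Saa1, Saa2 and Orm2 were lower on HFD in all libraries, as described below, whereas Crp was not. Capitals mark the C/EBP element, and each line runs 5′ to 3′ on the strand of the gene.
The Saa1 stretch (chr7:46743031-46743230, minus strand), the Saa2 stretch (chr7:46751583-46751782, plus strand), the Orm2 stretch (chr4:63362199-63362398, plus strand) and the Crp stretch (chr1:172697806-172698005, plus strand) read as follows.
Saa1: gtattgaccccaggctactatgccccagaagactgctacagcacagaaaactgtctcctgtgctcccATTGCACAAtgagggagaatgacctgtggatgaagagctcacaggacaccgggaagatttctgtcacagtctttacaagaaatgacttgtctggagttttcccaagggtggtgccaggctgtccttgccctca
Saa2: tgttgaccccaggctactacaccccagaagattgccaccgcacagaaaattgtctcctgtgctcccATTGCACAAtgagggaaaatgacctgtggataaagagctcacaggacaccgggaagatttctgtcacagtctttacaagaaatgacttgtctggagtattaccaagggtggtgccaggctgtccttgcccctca
Orm2: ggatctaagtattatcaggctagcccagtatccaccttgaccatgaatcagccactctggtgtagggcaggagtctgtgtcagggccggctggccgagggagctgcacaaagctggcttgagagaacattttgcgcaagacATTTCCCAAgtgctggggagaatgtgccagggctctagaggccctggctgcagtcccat
Crp: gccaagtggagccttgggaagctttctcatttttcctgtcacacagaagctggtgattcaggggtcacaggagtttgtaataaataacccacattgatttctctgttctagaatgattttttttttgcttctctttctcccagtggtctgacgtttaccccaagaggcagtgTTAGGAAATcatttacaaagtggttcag

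The element lay 183 to 175 bases before the start of Saa1 and 184 to 176 bases before that of Saa2, with the same 9 letters in both. It lay 109 to 101 bases before the start of Orm2 and 78 to 70 bases before that of Crp. The windows of Saa1 and Saa2 were identical at 95.6% of their aligned positions. A ROR half-site (AGGTCA on either strand), the core letters of the sites that ROR proteins bind, was found in the windows of Saa1, Saa2 and Saa4, which are 3 of 8, and in 14% of all windows. In Saa1 and Saa2 it began 164 and 165 bases before the start, and it did not overlap the C/EBP element. A STAT element (TTCNNNGAA) and an NF-κB element were found in 0 of the 8 windows, against 7.02% and 7.25% of all windows. A match describes letters in a window and does not show that a factor bound there.

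**Figure D1:**
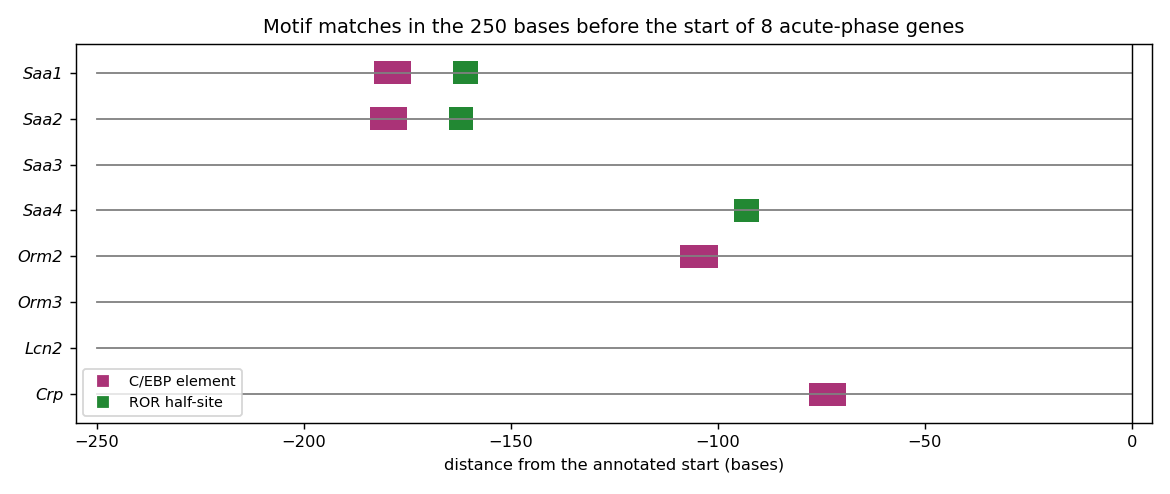
Positions of motif matches on either strand in the 250 bases before the annotated start of 8 acute-phase genes, with the distance from the start in bases on the horizontal axis and a row for each gene. The C/EBP element (purple) stands in 4 rows and the ROR half-site (green) in 3, at nearly the same distances in Saa1 and Saa2.

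The libraries were alike in the number of genes with FPKM above 1 (10587 to 10706), and the acute-phase genes together made up 0.294% to 0.731% of the summed FPKM. One gene, ENSMUSG00000093077, held 18.7% of the summed FPKM of the second CD-fed f/f library and 2.12% to 5.4% of the others. FPKM keep no read counts, so the counting error of a value could not be computed. Rora (ENSMUSG00000032238), the targeted gene, had FPKM of 8.85 and 8.59 in the CD-fed f/f libraries and 7.96 and 8.18 in the CD-fed LKO libraries. On HFD it had FPKM of 7.56 and 7.86 in the f/f libraries and 7.3 and 8.02 in the LKO libraries, which overlapped. The FPKM covers the whole gene rather than the deleted exons and did not separate the genotypes on HFD, so libraries are called LKO-labelled or f/f-labelled and directions between genotypes rest on these labels. The study itself reported strongly reduced Rora mRNA and RORα protein in liver and primary hepatocytes of LKO mice, measured apart from this sequencing. All 8 hepatocyte markers examined, such as Cps1 and Cyp2e1, were detected in every library, but some of their levels differed with diet. In limma, described below, 3 of 8 had adjusted p under 0.05 for HFD against CD under the f/f label (1.33% of all genes). Under the LKO label 2 of 8 did (3.02% of all genes). There, without quantile normalization, 6 were lower on HFD and 1 higher at unadjusted p under 0.05 (12.5% and 8.5% of all genes).

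The members spanned a wide range of levels. Hp was the most abundant member per length in every library, with FPKM of 1326 to 2633, and Saa3 and Orm3 were the least abundant, with FPKM of 1.82 to 5.9 and 0.925 to 4.82. Saa2 varied most, with the highest library 38.6 times the lowest, and was followed by Saa1 at 18.7 times and Orm2 at 14.1 times. Crp varied least, at 1.26 times. Library 1 of the CD-fed LKO group was the highest of the 8 libraries for 8 members and library 2 of that group for the other 2. The lowest library was HFD-fed f/f library 1 for 6 members, HFD-fed LKO library 1 for 3 and CD-fed f/f library 2 for 1, which was Crp.

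**Figure D2:**
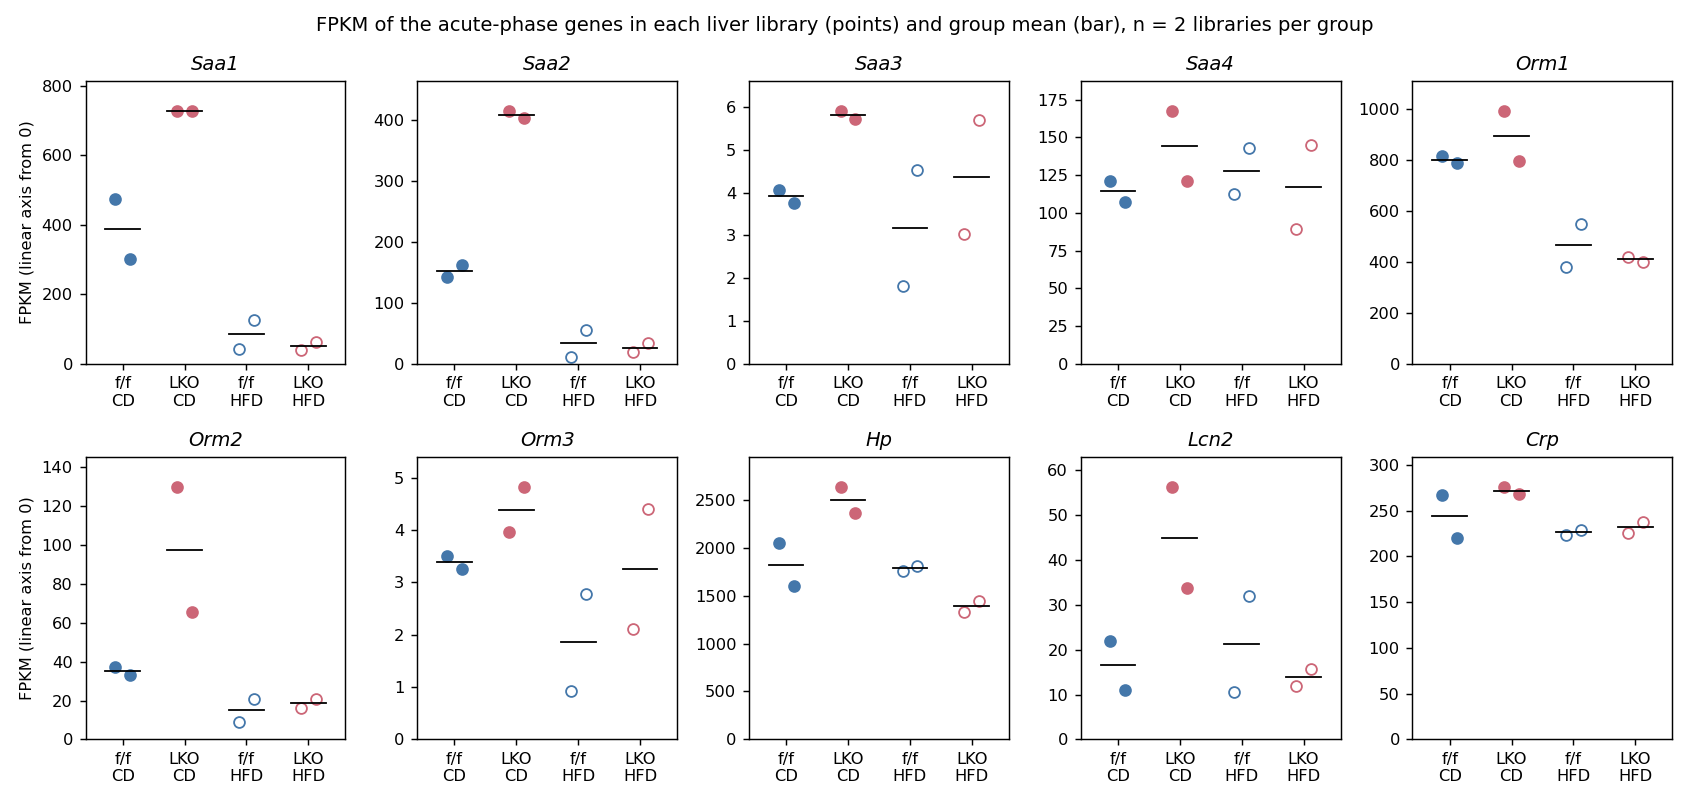
FPKM of the 10 acute-phase genes on a linear axis from 0, with a point for each library (2 per group, filled on CD and open on HFD, blue for f/f-labelled and red for LKO-labelled) and a bar at the group mean. Saa1, Saa2, Orm1 and Orm2 have all 4 CD points above all 4 HFD points, whereas the HFD-fed f/f points lie far apart for Saa1, Saa2 and Lcn2.

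The diet comparison asked how the liver transcriptome differed after HFD feeding under each genotype label. The inducible serum amyloid A genes and the orosomucoids Orm1 and Orm2 were lower on HFD than on CD under both labels. Within the LKO-labelled libraries Saa1, Saa2, Orm1 and Orm2 fell with adjusted p under 0.05 (limma, 1 fit over the 8 libraries with Benjamini-Hochberg adjustment over the 11634 genes), which is 4 of 10 members against 3.02% of all genes called in either direction. Within the f/f-labelled libraries 0 of 10 members and 1.33% of all genes reached adjusted p under 0.05.

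Saa1 had FPKM of 473 and 299.9 in the CD-fed f/f libraries and of 41.2 and 127 in the HFD-fed f/f libraries. In the LKO-labelled libraries its FPKM was 725 and 726 on CD and 38.9 and 62 on HFD. Every CD library was above every HFD library. On the log2(FPKM + 1) scale Saa1 fell by 3.75 in the LKO-labelled libraries (standard error 0.51, adjusted p = 0.021 from limma), and its difference in the f/f-labelled libraries was −2.30 (standard error 0.51, unadjusted p = 0.00282 and adjusted p = 0.0827 from limma).

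Saa2 had FPKM of 142 and 161 in the CD-fed f/f libraries and of 10.7 and 55.7 in the HFD-fed f/f libraries. In the LKO-labelled libraries its FPKM was 414 and 402 on CD and 19.7 and 33.2 on HFD. The ratio of mean FPKM, CD over HFD, was 4.56 under the f/f label and 15.4 under the LKO label. Saa2 fell by 3.87 on the log2 scale in the LKO-labelled libraries (standard error 0.66, adjusted p = 0.0357 from limma), and differed by −2.51 in the f/f-labelled libraries (standard error 0.66, unadjusted p = 0.0068, adjusted p = 0.115 from limma).

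Saa3 and Saa4 did not show this difference beyond their spread. Saa3 had FPKM of 4.06 and 3.77 (CD) and 1.82 and 4.54 (HFD) under the f/f label, and of 5.9 and 5.71 (CD) and 3.04 and 5.69 (HFD) under the LKO label. Saa4 had FPKM of 121 and 107 (CD) and 112 and 143 (HFD) under the f/f label, and of 167 and 121 (CD) and 89.1 and 145 (HFD) under the LKO label. The diet groups overlapped in both genes except for Saa3 under the LKO label. The 95% interval of the log2 difference in the LKO-labelled libraries was −1.19 to 0.45 for Saa3 and −0.84 to 0.31 for Saa4.

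Among the orosomucoids, Orm1 was the most abundant by FPKM, with 816 and 785 in the CD-fed f/f libraries and 379.9 and 549 in the HFD-fed f/f libraries. In the LKO-labelled libraries Orm1 had FPKM of 989 and 794 on CD and 419 and 399 on HFD, again without overlap. It fell by 0.98 on the log2 scale under the LKO label (standard error 0.16, adjusted p = 0.0347 from limma) and differed by −0.68 under the f/f label (standard error 0.16, unadjusted p = 0.00442, adjusted p = 0.0982 from limma). Orm2 had FPKM of 37.3 and 33.3 (CD) and 9.18 and 20.8 (HFD) under the f/f label, and of 129.8 and 65.3 (CD) and 16.3 and 20.8 (HFD) under the LKO label. It fell by 2.21 on the log2 scale under the LKO label (standard error 0.42, adjusted p = 0.0467 from limma), whereas its difference under the f/f label was −1.26 (standard error 0.42, unadjusted p = 0.0202, adjusted p = 0.179 from limma). Orm3 was low throughout, with FPKM of 3.51 and 3.26 (CD) and 0.925 and 2.78 (HFD) under the f/f label and of 3.95 and 4.82 (CD) and 2.11 and 4.4 (HFD) under the LKO label, and its 2 diet differences had intervals that included 0.

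The remaining members were Hp, Lcn2 and Crp. Hp had FPKM of 2047 and 1599 (CD) and 1758 and 1811 (HFD) under the f/f label, which overlapped, and of 2633 and 2365 (CD) and 1326 and 1449 (HFD) under the LKO label, which did not. Its log2 difference was 0.19 under the f/f label (unadjusted p = 0.117 from limma, and −0.02 without quantile normalization) and −0.45 under the LKO label (standard error 0.11, unadjusted p = 0.00419, adjusted p = 0.0738 from limma). Without quantile normalization the latter was −0.85 (adjusted p = 0.0288 from limma), so that the size and the call of Hp depended on the scaling. Lcn2 had FPKM of 21.9 and 11 (CD) and 10.5 and 31.9 (HFD) under the f/f label, with both CD libraries within the range of the HFD libraries. Under the LKO label Lcn2 had FPKM of 56.2 and 33.7 (CD) and 12 and 15.6 (HFD), with a log2 difference of −1.56 (standard error 0.53, unadjusted p = 0.0232, adjusted p = 0.163 from limma). Crp had FPKM of 268 and 219.8 (CD) and 223 and 229 (HFD) under the f/f label, which overlapped, and of 276 and 268 (CD) and 226 and 238 (HFD) under the LKO label, which did not. Its log2 difference was −0.01 under the f/f label (unadjusted p = 0.891) and −0.09 under the LKO label (unadjusted p = 0.328 from limma), and −0.10 and −0.23 without quantile normalization (unadjusted p = 0.347 and 0.0534 from limma).

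Counted together, 6 of 10 members under the LKO label (Saa1, Saa2, Orm1, Orm2, Hp and Lcn2) and 4 of 10 under the f/f label (Saa1, Saa2, Orm1 and Orm2) were lower on HFD at unadjusted p under 0.05, against 9.69% and 9.22% of all genes lower at that level. Both HFD libraries lay below both CD libraries for 8 members under the LKO label and for 5 under the f/f label, where 30.2% and 27.6% of all genes did so. For Saa3 under the LKO label the gap was very small (FPKM 5.69 against 5.71). The median log2 difference over the members was −0.71 under the LKO label and −0.49 under the f/f label, and 0.01 over all genes tested in both. A comparison of HFD with CD averaged over the genotype labels, chosen after the values had been seen, gave adjusted p under 0.05 for Saa1 (−3.03, adjusted p = 0.00714), Saa2 (−3.19, adjusted p = 0.0119), Orm1 (−0.83, adjusted p = 0.0104) and Orm2 (−1.73, adjusted p = 0.0185 from limma), while 9.89% of all genes were called. The same 4 members had all 4 HFD libraries below all 4 CD libraries, as did 10.3% of all genes.

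The 4 adjusted calls under the LKO label rested on the pooled spread of the 8 libraries. The number of members called was 3 without either HFD-fed f/f library and 0 without any 1 of the other 6 libraries (CD-fed f/f 1 or 2, CD-fed LKO 1 or 2, HFD-fed LKO 1 or 2), and it was 0 when only the 4 libraries of the comparison were fitted. Under the f/f label the number was 1 without HFD-fed f/f library 2. Under the LKO label the log2 change of Saa1 under the alternatives tried stayed between −4.07 and −3.42, that of Saa2 between −4.23 and −3.52, that of Orm1 between −1.11 and −0.90 and that of Orm2 between −2.70 and −1.71. Under the f/f label the ranges were −3.11 to −1.50 for Saa1, −3.66 to −1.37 for Saa2, −0.94 to −0.42 for Orm1 and −1.82 to −0.71 for Orm2, and in each the end nearer 0 came without HFD-fed f/f library 1 and the other end without HFD-fed f/f library 2. At unadjusted p under 0.05 the difference of Orm2 under the f/f label was lost without CD-fed f/f library 1 or 2 or HFD-fed f/f library 1 (unadjusted p of 0.0697 to 0.142 from limma). That of Lcn2 under the LKO label was lost without CD-fed LKO library 1, HFD-fed LKO library 1 or HFD-fed LKO library 2 (unadjusted p of 0.0636 to 0.146 from limma).

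**Figure D3:**
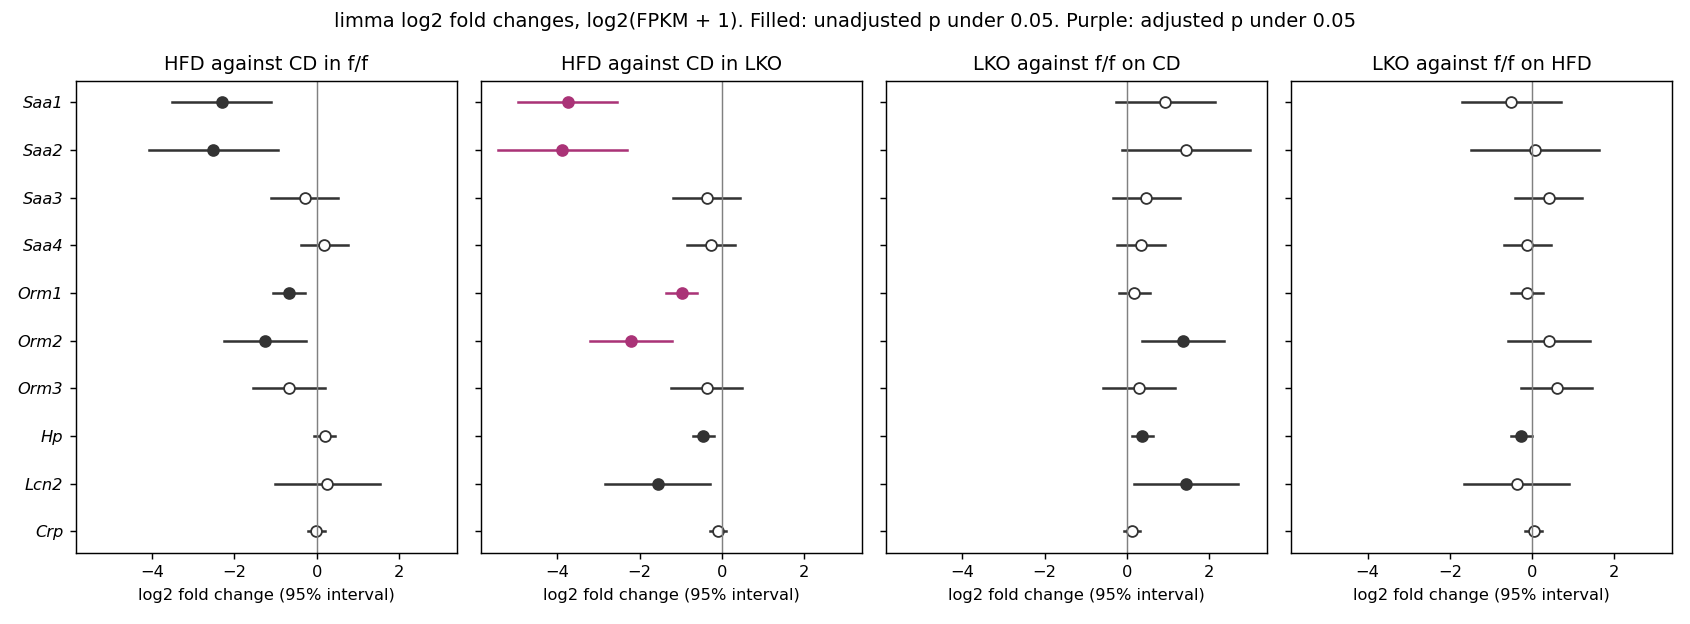
Log2 fold changes from limma on the log2(FPKM + 1) scale with 95% intervals (lines), for the 10 acute-phase genes between the diets within each label and between the genotype labels on CD and on HFD. Filled points have unadjusted p under 0.05 and purple points adjusted p under 0.05; the purple points are Saa1, Saa2, Orm1 and Orm2 in HFD against CD under the LKO label.

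The genotype comparison on CD asked how the livers differed with the loss of hepatic RORα without the dietary challenge. All 10 members had a mean above that of the f/f-labelled libraries, with a median log2 difference of 0.42 (0.00 over all genes), but 0 of 10 reached adjusted p under 0.05 in limma, where 0.0172% of all genes did. At unadjusted p under 0.05, 3 of 10 members were higher (6.15% of all genes). These were Orm2 (1.35, standard error 0.42, unadjusted p = 0.0151, adjusted p = 0.294 from limma), Hp (0.38, standard error 0.11, unadjusted p = 0.0103, adjusted p = 0.267 from limma) and Lcn2 (1.44, standard error 0.53, unadjusted p = 0.0319, adjusted p = 0.349 from limma). For 9 members the lower LKO-labelled library was still above the higher f/f-labelled one, the exception being Orm1, and 20.8% of all genes did so. The gap was very small for Saa4 (FPKM 121.41 against 121.32) and Crp (268.06 against 267.62).

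The libraries of the inducible Saa genes did not overlap on CD. The CD-fed LKO libraries of Saa2, at 414 and 402, were above the CD-fed f/f libraries, at 142 and 161, by 2.69 times in the mean, and those of Saa1 by 1.88 times. The log2 difference was 1.43 for Saa2 (standard error 0.66, unadjusted p = 0.0665 from limma) and 0.93 for Saa1 (standard error 0.51, unadjusted p = 0.108 from limma). When only the 4 CD libraries were fitted, the differences kept their size and had unadjusted p of 0.000153 and 0.02, in a fit that leaves out the spread of the HFD-fed libraries. The permutation procedure of the study's methods, rewritten here with 100 of the 210 distinct regroupings, called Saa1, Saa2, Orm2 and Lcn2 as higher, 4 of 10 members against 2.38% of all genes. The rewritten procedure called more genes on either diet than the study reported, so its calls are not those of the study. Its fold-change cutoff, computed here from the regroupings as 0.48 on the log2 scale, lies above the one stated in the methods, and with the stated cutoff Saa3 (0.47) was called as well, 5 of 10 members against 2.82% of all genes. The number of members at unadjusted p under 0.05 in limma was 0 without CD-fed f/f library 2, 1 without CD-fed LKO library 1 and 5 without either HFD-fed f/f library. It was 2 without either HFD-fed LKO library.

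On HFD the genotype labels did not separate the members. Of the 10 members 5 were above and 5 below the f/f-labelled mean, the median log2 difference was −0.04 (0.00 over all genes), and 0 reached adjusted p under 0.05 in limma (0.043% of all genes). Only Hp had unadjusted p under 0.05, with a log2 difference of −0.27 (standard error 0.11, unadjusted p = 0.0414, adjusted p = 0.49 from limma), where 4.12% of all genes were lower at that level. Hp was also the only member whose LKO-labelled libraries, at FPKM 1326 and 1449, did not overlap the f/f-labelled libraries, at 1758 and 1811, and 23.0% of all genes were lower without overlap. The permutation procedure of the study's methods, which applies a fold-change cutoff too, called 0 members and 4.01% of all genes. The intervals were wide for the most variable members, from −1.71 to 0.69 for Saa1 and from −1.49 to 1.63 for Saa2 on the log2 scale. The number of members at unadjusted p under 0.05 was 4 without HFD-fed f/f library 1, 3 without HFD-fed f/f library 2, and 0 without any 1 of the CD-fed LKO or HFD-fed LKO libraries.

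The difference between the diets in the genotype effect was tested as an interaction. It was below 0 for 9 of 10 members, with a median of −0.55 (0.01 over all genes), and 0 of 10 reached adjusted p under 0.05 (0.0344% of all genes). At unadjusted p under 0.05 Hp (−0.64, standard error 0.15, unadjusted p = 0.00402, adjusted p = 0.518 from limma) and Lcn2 (−1.82, standard error 0.76, unadjusted p = 0.0482, adjusted p = 0.594 from limma) were lower, against 4.01% of all genes. The interaction was −1.44 for Saa1 (standard error 0.72, unadjusted p = 0.0845 from limma) and −1.36 for Saa2 (standard error 0.93, unadjusted p = 0.186 from limma). The larger diet difference of these genes under the LKO label was therefore not shown to differ from that under the f/f label. The count was 6 without HFD-fed f/f library 1, 2 without CD-fed f/f library 1 or HFD-fed LKO library 2, and 1 without any other library.

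The replicate libraries of the HFD-fed f/f group differed from each other in these genes more than those of other groups. The median absolute difference between its 2 libraries over the 10 members was 1.01 on the log2 scale, against 0.119 over all genes tested, and the 95th percentile over all genes was 0.51. It was 0.48 over the members in the HFD-fed LKO group, 0.18 in the CD-fed f/f group and 0.18 in the CD-fed LKO group. Library 2 of the HFD-fed f/f group was higher than library 1 for all 10 members, by 2.29 for Saa2, 1.61 for Saa1, 1.52 for Lcn2 and 0.01 for Crp. A library pools only 2 livers, and whether 1 mouse carried the difference cannot be told apart from these values.

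The near-identity of some members limits how their values can be read. The transcripts Saa1-201 and Saa2-201 were identical at 94.4% of aligned bases, and 31.1% of the 50-base stretches of Saa1 transcripts also occurred in Saa2. For Orm1 and Orm2 these values were 91% and 20.4%. Reads from such stretches can be assigned to either gene, so that the levels of Saa1 against Saa2 and of Orm1 against Orm2 are uncertain. The ratio of Saa1 to Saa2 in FPKM ranged from 1.75 to 3.84 over the libraries, and was 1.75 to 1.98 in the 4 LKO-labelled libraries and 1.86 to 3.84 in the 4 f/f-labelled libraries. Hp and Lcn2 shared 0% of such stretches with any other gene, and Crp 0.442%.

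Of the cytokines that induce acute-phase genes, 3 of 10 passed the filter on low values. Il6 was listed at FPKM 0 in all 8 libraries. A listed 0 can be a failed estimate, since Alb was listed at 0 in 4 of these liver libraries. Alb had FPKM between 29902 and 30888 in the others, whereas no library listed Il6 above 0. Whether Il6 was absent or not estimated cannot be told from these values. Il1b, which encodes interleukin-1β, had FPKM of 0.693 and 0.606 in the CD-fed f/f libraries and of 1.19 and 1.22 in the CD-fed LKO libraries. On HFD Il1b had FPKM of 0.256 and 0.353 under the f/f label and of 0.446 and 0.897 under the LKO label, and its comparisons within a label or a diet had unadjusted p of 0.0617 or more in limma. Averaged over the labels, Il1b differed with HFD by −0.40 (unadjusted p = 0.0177, adjusted p = 0.0986 from limma), and without quantile normalization its difference between the genotype labels on CD was 0.42 (unadjusted p = 0.0483, adjusted p = 0.396 from limma). At unadjusted p under 0.05, 1 cytokine, Ctf1, was higher on HFD under the LKO label (0.52), where 11.7% of all genes were higher, and higher in LKO-labelled libraries on HFD (0.32), where 5.46% of all genes were.

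Among 10 receptor genes tested of 11 listed, 3 passed adjusted p under 0.05 with diet under the LKO label, where 3.02% of all genes did. Il6ra, which encodes the ligand-binding chain of the interleukin-6 receptor, rose by 0.87 on the log2 scale (adjusted p = 0.0223), Il1r1, the signalling receptor of interleukin-1, rose by 1.32 (adjusted p = 0.0393), and Lifr, the receptor of leukaemia inhibitory factor, fell by 1.2 (adjusted p = 0.0251 from limma). Lifr also fell under the f/f label, by 1.14 (adjusted p = 0.0404 from limma), with FPKM of 66.2 and 74.6 on CD and 29.6 and 31.4 on HFD. Il1r1 differed by 0.76 under the f/f label (unadjusted p = 0.0149, adjusted p = 0.156 from limma). Under the f/f label Il6ra had FPKM of 18.6 and 18.7 on CD and 19.2 and 15.7 on HFD. Its CD-fed LKO libraries were the low ones, with FPKM of 8.18 and 9.39, so that Il6ra was lower in LKO-labelled than in f/f-labelled libraries on CD (−1.0, adjusted p = 0.0838 from limma), where 3 of 10 receptors were lower and 1 higher at unadjusted p under 0.05 (6.12% and 6.15% of all genes). Il6ra thus lay opposite to the members between the CD groups. So did Il1r1, with FPKM of 16.2 and 11.8 in the CD-fed f/f libraries and 7.27 and 7.52 in the CD-fed LKO libraries. Its log2 difference there was −0.80 (unadjusted p = 0.0118, adjusted p = 0.279 from limma).

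All 17 listed signal transducers and transcription factors were tested. With diet 1 had adjusted p under 0.05 under the f/f label and 0 under the LKO label, against 1.33% and 3.02% of all genes. Under the LKO label 5 were lower at unadjusted p under 0.05, against 9.69% of all genes. Stat3, the transcription factor downstream of interleukin-6, had log2 diet differences of −0.28 under the f/f label (unadjusted p = 0.048) and −0.33 under the LKO label (unadjusted p = 0.0263, adjusted p = 0.172 from limma). Cebpb, which encodes a C/EBP factor of the acute phase, differed by −0.57 (unadjusted p = 0.0109) and −0.54 (unadjusted p = 0.014, adjusted p = 0.128 from limma). Cebpa, the C/EBP factor of the resting hepatocyte, rose with HFD by 0.59 under the f/f label (adjusted p = 0.0373 from limma) and differed by −0.28 under the LKO label (unadjusted p = 0.0101 from limma). Its interaction was −0.87 (unadjusted p = 0.00014, adjusted p = 0.229 from limma), and no transducer passed the adjusted test between the genotype labels on either diet.

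Among 6 of 8 feedback inhibitors and co-regulators tested, 3 were higher in LKO-labelled libraries on CD at unadjusted p under 0.05, against 6.15% of all genes. Socs3, which STAT3 induces and which inhibits the interleukin-6 receptor, had FPKM of 1.55 and 1.97 in the CD-fed f/f libraries and of 4.1 and 3.24 in the CD-fed LKO libraries (log2 difference 0.72, unadjusted p = 0.00691, adjusted p = 0.247 from limma). Bcl3 and Il1rn differed by 0.92 and 0.57 in the same comparison (adjusted p = 0.309 and 0.358 from limma). On HFD 1 was higher at unadjusted p under 0.05, against 5.46% of all genes, which was Il1rn (0.53, unadjusted p = 0.0437, adjusted p = 0.5 from limma). On HFD Socs3 had FPKM of 2.18 and 2.14 under the f/f label and of 1.46 and 2.45 under the LKO label, so that its groups overlapped.

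Of 22 other positive acute-phase genes 21 were tested. These include Serpina3m, listed at FPKM 0 in all libraries but CD-fed LKO library 1 (172). They also include Cfb, listed at 0 in CD-fed LKO library 2 only. Such a 0 can be a failed estimate, and both genes enter the counts and medians of the list. With HFD under the LKO label 9 were lower and 0 higher at unadjusted p under 0.05, against 9.69% and 11.7% of all genes, and under the f/f label 2 were lower and 1 higher, against 9.22% and 9.94%. Without quantile normalization 14 were lower under the LKO label (12.5% of all genes) and 3 under the f/f label (11.2% of all genes). The median log2 difference of the list was −0.33 under the LKO label and 0.01 under the f/f label, and without quantile normalization −0.48 and, with the sign reversed, −0.12. Hamp, which encodes the iron-regulating hormone hepcidin, fell by 1.81 under the LKO label (adjusted p = 0.0301 from limma) and differed by −1.43 under the f/f label (adjusted p = 0.066 from limma). Its FPKM was 2537 and 1789 (CD) and 590.4 and 855 (HFD) under the f/f label, and 2627 and 1688 (CD) and 438 and 539 (HFD) under the LKO label.

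Fgl1, Steap4 and Mt1 were lower under the LKO label at unadjusted p under 0.05, by −1.04, −0.77 and −0.72 (adjusted p of 0.101 to 0.158 from limma). Hpx, which encodes the haem-binding hemopexin, had FPKM of 2914 and 2449 (CD) and 1310 and 1338 (HFD) under the LKO label, with a log2 difference of −0.61 (adjusted p = 0.0666 from limma), which was −1.01 without quantile normalization (adjusted p = 0.0214 from limma). Under the f/f label the difference of Hpx was −0.25 (unadjusted p = 0.113), and −0.50 without quantile normalization (unadjusted p = 0.00828, adjusted p = 0.124 from limma). Lbp, the lipopolysaccharide-binding protein, went the other way and rose with HFD under the f/f label by 0.40 (adjusted p = 0.0453 from limma). This call depended on the scaling, since 0 of the 21 genes had adjusted p under 0.05 there without quantile normalization or with median centring. Lbp was also higher in LKO-labelled libraries on CD, with FPKM of 75.7 and 73.3 against 51.7 and 50.1 (0.56, adjusted p = 0.0757 from limma), the only other positive acute-phase gene at unadjusted p under 0.05 there. Apcs, the serum amyloid P component, had log2 diet differences of 0.17 (f/f label) and −0.33 (LKO label), with unadjusted p of 0.339 or more in limma. Serpina3n, an antichymotrypsin, differed by 0.20 (unadjusted p = 0.119) and −0.21 (unadjusted p = 0.103 from limma), and by 0.10 and −0.37 without quantile normalization (unadjusted p = 0.497 and 0.0306 from limma). Fgb, the fibrinogen β chain, had FPKM of 2396 and 2572 (CD) and 2120 and 2481 (HFD) under the f/f label, and of 2817 and 2786 (CD) and 1842 and 2215 (HFD) under the LKO label, which did not overlap. Its log2 differences of 0.17 and 0.10 (unadjusted p = 0.282 and 0.516 from limma) turned to −0.11 and −0.47 without quantile normalization (unadjusted p = 0.368 and 0.00555, the latter with adjusted p = 0.0877 from limma), so that no direction is given for it.

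All 9 negative acute-phase proteins were tested, and their counts depended on the scaling. With HFD 3 were higher and 1 lower under the LKO label at unadjusted p under 0.05, against 11.7% and 9.69% of all genes, and 1 was higher and 1 lower under the f/f label, against 9.94% and 9.22%. Without quantile normalization 0 were higher and 4 lower under the LKO label (8.5% and 12.5% of all genes), and 0 were higher and 3 lower under the f/f label (7.82% and 11.2% of all genes), in limma. At an adjusted p under 0.05 limma called 0 of the 9 under either label with either scaling. Ttr, which encodes transthyretin, had FPKM of 4025 and 3994 (CD) and 4196 and 4034 (HFD) under the f/f label, and of 4541 and 4322 (CD) and 4302 and 4200.2 (HFD) under the LKO label. Its log2 diet differences were 0.42 (adjusted p = 0.108) under the f/f label and 0.35 (adjusted p = 0.122 from limma) under the LKO label, and without quantile normalization 0.04 and, with the sign reversed, −0.06 (unadjusted p = 0.63 and 0.446 from limma). Alb was listed at FPKM 0 in 4 libraries, which were CD-fed LKO library 1, HFD-fed f/f library 2 and both HFD-fed LKO libraries, and between 29902 and 30888 in the others. It is counted among the 9 tested, but its differences are not given.

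**Figure D4:**
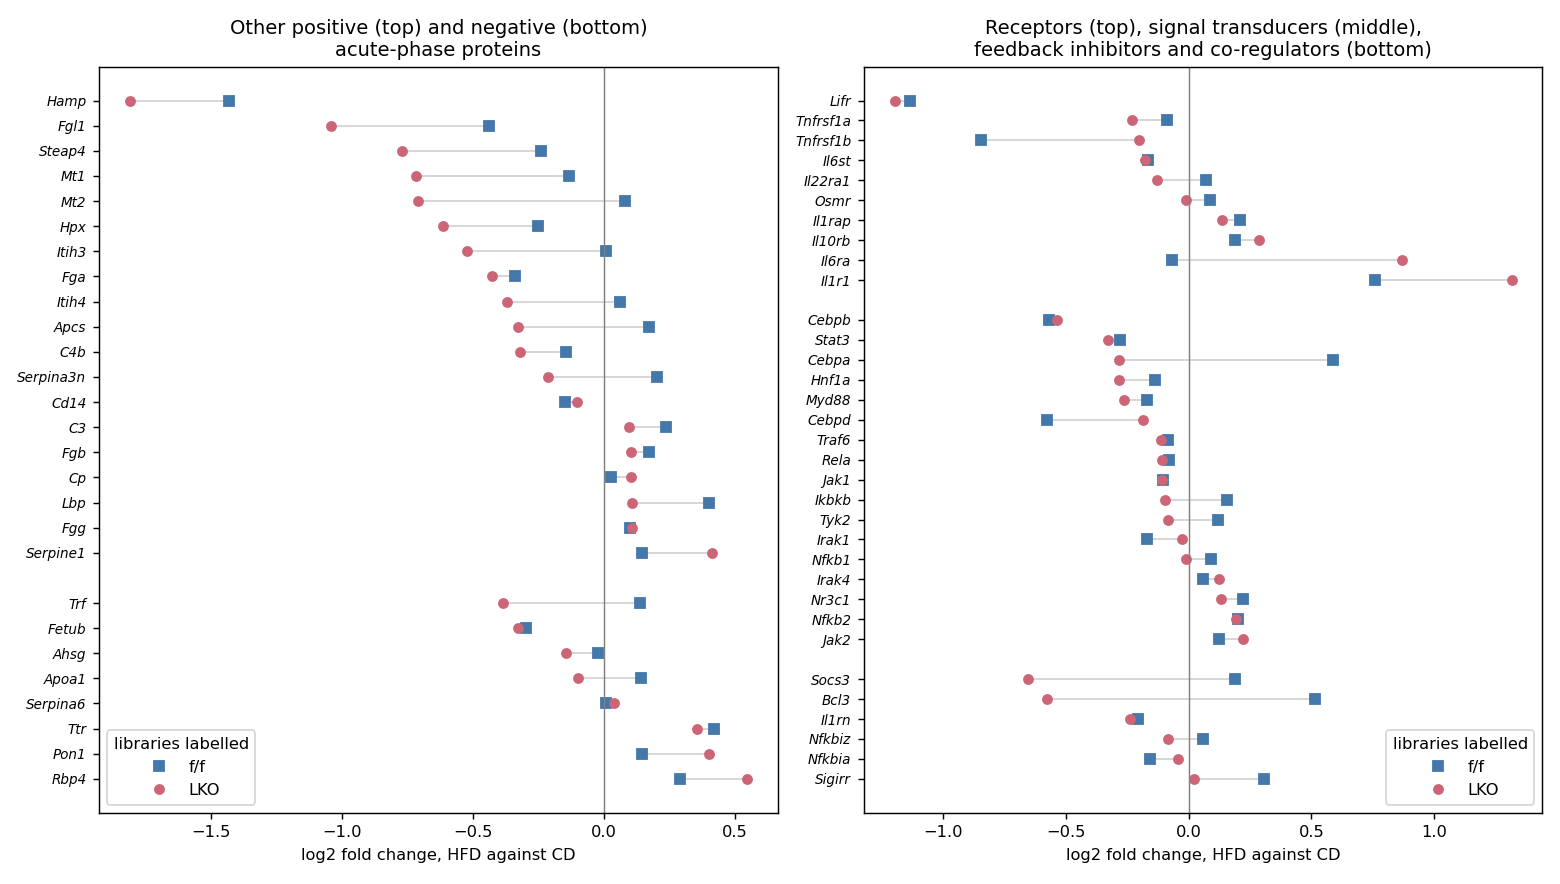
Log2 fold changes of HFD against CD (limma, quantile-normalized log2(FPKM + 1)) under the f/f label (blue squares) and the LKO label (red circles) for 19 other positive and 8 negative acute-phase proteins (left) and for 10 receptors, 17 transducers and 6 feedback genes (right), without genes that any library lists at 0. In the LKO-labelled libraries 13 of the 19 positive acute-phase genes are below 0, led by Hamp.

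Markers of cells other than hepatocytes were read as summed FPKM, since fewer cells of a type and less RNA per cell cannot be told apart in whole liver. The 12 neutrophil markers, a possible source of Lcn2, summed to FPKM of 2.22 to 2.95 (CD-fed f/f), 2.66 to 3.56 (CD-fed LKO), 1.54 to 1.67 (HFD-fed f/f) and 1.46 to 3.7 (HFD-fed LKO). Only 2 of the 12 passed the filter, Ly6g and Camp were listed at 0 in all libraries, and S100a8 had FPKM of at most 1.03. The 14 Kupffer cell and macrophage markers summed to 149.6 to 188 (CD-fed f/f), 138 to 149.9 (CD-fed LKO), 114 to 134 (HFD-fed f/f) and 140.2 to 186 (HFD-fed LKO). Of the 12 tested, all 12 had a log2 diet difference below 0 under the f/f label, 4 of them at unadjusted p under 0.05 (9.22% of all genes). Under the LKO label all 12 had a log2 diet difference above 0, and 0 of them had unadjusted p under 0.05 (11.7% of all genes were higher). All 12 were above the f/f mean in the HFD-fed LKO libraries, 5 of them at unadjusted p under 0.05 (5.46% of all genes). On CD 11 of the 12 were below the f/f mean in the LKO-labelled libraries, 1 of them at that level (6.12% of all genes). In the interaction 5 of the 12 were higher at unadjusted p under 0.05 (4.35% of all genes), whereas the members lay below 0 in 9 of 10. Among the adipocyte markers Cfd alone was tested. Its FPKM was 0.182 and 0.483 (CD) and 0.488 and 1.87 (HFD) under the f/f label. Under the LKO label it was 2.76 and 0.538 (CD) and 5.45 and 5.29 (HFD). The log2 difference of Cfd between the labels on HFD was 1.63 (unadjusted p = 0.00901, adjusted p = 0.328 from limma). With diet under the LKO label it was 1.43 (unadjusted p = 0.0166, adjusted p = 0.14 from limma). The part of these cells in the members' values was not tested.

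Of the receptors and binding partners of the members, 5 of 8 were tested, and Scarb1, a receptor for high-density lipoprotein and serum amyloid A, was the one with adjusted p under 0.05. It rose with HFD by 0.40 under the f/f label (adjusted p = 0.0487) and by 0.37 under the LKO label (adjusted p = 0.042 from limma), opposite to Saa1 and Saa2. These calls depended on the scaling. Without quantile normalization, and with median centring, 0 of the 5 had adjusted p under 0.05 in limma under either label.

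The genes whose pattern over the 8 libraries was most like the mean of the standardized members were sought among 9830 genes with FPKM above 1 in every library. Among the 10 closest were Ldhd, Cmtr1, Osgin1, C4b, Psme1, Tmem176a, Aco1 and Hpx, with Pearson's r from 0.924 to 0.978 over 8 libraries, which share groups of 2 and are a description only. C4b and Hpx encode plasma proteins and were on the list of other positive acute-phase proteins. Ldhd, the D-lactate dehydrogenase with the highest r, ranged from FPKM 79.5 to 85.4 in the CD-fed LKO libraries and from 55.8 to 64.8 in the HFD-fed libraries. Within the members, r to their own mean was highest for Orm2 (0.941), Lcn2 (0.912) and Saa2 (0.91), and lowest for Saa4 (0.651) and Crp (0.703). Each member is part of that mean, so a positive r is partly built in.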

How the data were processed

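RNA was sequenced from 8 mouse liver libraries, 2 in each of 4 groups of genotype and diet, assigned by sample title. According to the methods and processing notes, the authors trimmed reads with cutadapt 1.0, aligned them to GRCm38 with TopHat2 2.0.7 and estimated expression with Cufflinks. The deposited values are FPKM, not counts, so count tests were not run. The members and gene lists were chosen with earlier results of these data known.

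Of 38283 genes, the 11634 that exceeded FPKM 1 in 1 or more libraries were kept, 1 was added, and log2 values were quantile normalized, which rescales abundant genes such as Hp by rank. limma 3.58.1 (R 4.3.3) fitted 4 group means with a mean-variance trend, with 4 residual and 2.8 prior degrees of freedom. Benjamini-Hochberg adjustment ran over all genes of a comparison. The fit was tested on simulated data. Symbols and coordinates came from GENCODE M21. Each replicate is a separate pool of livers. Named genes were the members, up to 4 per list with the largest change at unadjusted p under 0.05, and Il6, Il1b, Stat3, Socs3, Apcs, Serpina3n, Hpx, Fgb, Alb, Ttr and S100a8. Rora and genes among the 10 of most similar pattern were also named, of which some are not reported here; C3, Tyk2, Ly6g, Camp and ENSMUSG00000093077 were chosen after their values were seen. Figures were drawn with matplotlib 3.10.9.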

Additional observations from a re-analysis of the deposited data

Results flagged for a closer look

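Of the 10 members, Hp moved in opposite directions with genotype on the diets in every library, with both LKO-labelled libraries above both f/f-labelled ones on CD and below them on HFD (interaction −0.643, unadjusted p = 0.00402, adjusted p = 0.518 from limma). Genotype directions were opposite in this way for 6.71% of all genes tested, and opposite for genotype or diet in 9.56%.

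Among the other listed genes, 12 showed opposite directions in every library of a comparison by genotype or by diet, and in limma 0 of them had an adjusted p under 0.05 for the interaction. The other lists held 3, 10, 17, 6, 21, 9, 5, 2, 12, 1 and 8 tested genes. Of all 11634 genes tested, 1112 (9.56%) showed such directions, and whether the 12 exceeded that share was not tested. Cebpa had the largest interaction, −0.874, followed by Socs3 at −0.844. The macrophage markers Timd4 (0.729), Vsig4 (0.613), C1qb (0.563) and C1qc (0.494) and the haptoglobin-haemoglobin receptor gene Cd163 (0.553) had interactions above 0, as had Tnfrsf1b (0.646), a receptor of tumour necrosis factor. Hpx (−0.364), Tyk2 (−0.205), C3 (−0.143) and Ttr (−0.0674) had interactions below 0. The interactions of Hpx, Tyk2, C3 and Ttr had unadjusted p of 0.105 or more, so that opposite directions were seen in the libraries but the difference was not shown by the test. Without quantile normalization Hpx (−0.517) and C3 (−0.489) had unadjusted p of 0.0307 and 0.0366 (adjusted p = 0.609 and 0.617 from limma).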

How the results depend on the processing

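Each alternative but the permutation procedure changed 1 choice. Of 625 member log2 fold changes recomputed, 558 kept direction and side of unadjusted p under 0.05, 26 lost it, 20 gained it and 21 reversed. The cause of these changes was not tested unless stated. For a comparison within a label or a diet, runs without a library of another group were left out of these numbers. In some of the runs left out the counts of members changed, as described above. Saa1, Saa2 and Orm1 kept unadjusted p under 0.05 under HFD against CD for both labels in every limma alternative counted here, and Orm2 for the LKO label.

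Counts of members at unadjusted p under 0.05 ranged without a library from 0 to 5 (LKO against f/f on CD), 0 to 4 (on HFD) and 1 to 6 (difference between diets). Fitting only the CD libraries gave 6. The permutation procedure, which applies a fold-change cutoff as well, called 4 members on CD and 0 on HFD, and with the cutoff stated in the methods, an alternative chosen after seeing the data, 5 and 0. On HFD the count was 0 with genes above FPKM 0 in any library and with the replicate block, and the difference had 1 with the first of these, with the block and without the trend. Without normalization 5 members had adjusted p under 0.05 in limma for HFD against CD under the LKO label, and 5 with median centring. Members with adjusted p under 0.05 for HFD against CD under the LKO label numbered 0 to 3 without a library, 0 with genes above FPKM 0, 2 with the block, 2 without the trend and 0 with only the 4 libraries. Under the f/f label they numbered 0 or 1 without a library, 1 with FPKM above 1 in all libraries and 4 averaged over genotypes.

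Genes with adjusted p under 0.05 for LKO against f/f on CD (2) numbered 1 with pseudocount 0.1, 7 with FPKM above 1 in all libraries, 10 with FPKM above 0, 4 without the trend, 0 with only 4 libraries, 538 with the permutation procedure (unadjusted; 634 with the stated cutoff) and 2 to 20 without a library. On HFD (5) they numbered 24 with FPKM above 0, 466 with the permutation procedure (537 with the stated cutoff) and 4 to 25 without a library. For the difference (4) they numbered 2, 0 and 19 with the pseudocount and both filters and 11 to 21 without a library. For HFD against CD under the f/f label (155) they numbered 323 and 46 with the filters, 34 with the block, 42 without the trend, 5 with only 4 libraries and 12 to 34 without a library. Under the LKO label (351) they numbered 570 and 135 with the filters, 223 with the block, 229 without the trend, 0 with only 4 libraries and 19 to 79 without a library. Averaged over genotypes they numbered 1151.

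Member values that reversed had unadjusted p above 0.05 as reported. Hp in HFD against CD under the f/f label was −0.02 (−0.01994) without normalization. Without a library, LKO against f/f on HFD ranged from −1.31 to 0.29 for Saa1, −1.08 to 1.21 for Saa2, −0.10 to 0.90 for Saa3, −0.43 to 0.20 for Saa4, −0.38 to 0.14 for Orm1, −0.15 to 0.97 for Orm2 and −1.14 to 0.38 for Lcn2. The difference between diets ranged from −0.57 to 0.43 for Saa3, −0.20 to 0.81 for Orm3 and −0.19 to 0.034 for Crp. HFD against CD ranged under the f/f label from −0.80 to 0.20 for Saa3, −0.50 to 1.02 for Lcn2 and −0.12 to 0.10 for Crp, and under the LKO label from −0.59 to 0.051 for Saa4 and −0.77 to 0.032 for Orm3.

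Replicate numbers did not pair the libraries. They come from different animals, and the correlation of their deviations was 0.145 between the CD groups and 0.0644 to 0.0878 between the other groups compared. With the replicate block 3 genes were called for the difference, 7 for LKO against f/f on HFD and 2 on CD.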
